A study of Mus musculus with 32 samples.

Results

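The 32 genes described here encode enzymes and regulators of cholesterol and fatty acid synthesis. They were picked by name as genes of the SREBP pathway: 18 of sterol synthesis, 4 grouped as regulators and uptake, and 10 of fatty acid synthesis and desaturation. The 4 were Insig1, Srebf2, Srebf1 and the cytosolic sterol carrier Stard4, with no lipoprotein receptor among them. All 32 were found among 52636 gene entries of the RNA files, and all 32 passed the filter on low counts in each comparison below. The study sequenced rRNA-depleted RNA and small RNA from a hybrid mouse embryonic stem cell (ESC) line at day 0 and from neurons induced from it (iNs) at day 10, and Ago2 seCLIP from iNs. Control cells carried the floxed allele Mirg(fl/+) and deletion cells were Mirg(Delta/+), which lack the miR-379/410 cluster of microRNAs on the maternal chromosome. ESCs of both genotypes grew in medium with 10% FBS and LIF, and iNs were made by doxycycline induction of a TetO-Ngn2 transgene, which the labels name for all iNs, in neuron differentiation medium. Each of the 4 groups (control ESC, deletion ESC, control iN, deletion iN) had 3 RNA libraries.

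Cells make cholesterol from acetyl-CoA through mevalonate, isoprenoid diphosphates, squalene and lanosterol, and they make long-chain fatty acids from malonyl-CoA. Genes for both routes are classical targets of the SREBP transcription factors, which Srebf1 and Srebf2 encode. SREBPs are held in the endoplasmic reticulum by INSIG proteins when sterol is plentiful and are carried to the Golgi by SCAP and cut into active form when sterol is low. Neurons make part of their own cholesterol, and fatty acid desaturation and elongation supply growing membranes.

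SREBPs bind sterol regulatory elements (SREs) and often act beside NF-Y, which binds CCAAT. RefSeq promoters (GRCm38.p6, 250 bases before to 50 after the start) matched 25 of the 32 genes. Fdft1, Sqle, Fdps, Stard4, Scd1, Scd2 and Fads1 had no entry. An SRE core, TCACNCCAC on either strand, lay in 1 of the 25, that of Hmgcs1 (HMG-CoA synthase), against 1.44% of 27025 genes with a promoter entry. The core CCAAT, also searched on both strands, lay in 20 of 25 (80.0%), against 41.1% of genes, and the E-box CACGTG in 4 of 25 (16.0%), against 8.09%. By class, CCAAT lay in 14 of 15 sterol genes, 3 of 3 regulators and 3 of 7 fatty acid genes. On the gene's own strand alone CCAAT lay in 10 of 25 (40.0%), against 23.7% of genes, and in 7 of 15 sterol genes. A match is a description of letters, not of binding, and these shares were not tested. The Hmgcs1 promoter is shown because it alone held the SRE core. Its 250 bases before the start, at chr13:119690101-119690350 on the plus strand, read as follows, with the SRE core (its first base 137 bases before the start) and 3 CCAAT cores (here as ATTGG on the minus strand) in capitals.

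Hmgcs1 promoter: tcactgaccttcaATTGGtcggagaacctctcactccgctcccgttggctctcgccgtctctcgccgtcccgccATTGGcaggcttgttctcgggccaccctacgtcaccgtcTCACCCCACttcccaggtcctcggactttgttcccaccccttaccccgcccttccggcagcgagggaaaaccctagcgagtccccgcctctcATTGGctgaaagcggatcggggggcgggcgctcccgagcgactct

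The Srebf2 gene (chr15:82147269-82205379) also carries Mir33, a microRNA known to act on sterol export genes such as Abca1. Its mature forms are shown with the seed, bases 2 to 8, in capitals, because the small RNA libraries give a further readout of this locus.

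miR-33-5p: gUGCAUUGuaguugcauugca
miR-33-3p: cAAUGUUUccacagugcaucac

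The RNA libraries held 14904735 to 21499106 expected counts. Levels are given as CPM, each gene's share of a library's counts scaled up to a fixed total, on library sizes scaled by TMM over all 12 libraries, and a change was called when its adjusted p over all genes tested was below 0.05. The labels do not say whether replicates were separate cultures, so the p-values speak only of variation from library to library, which may be technical. Transcripts of Mirg, the host of the deleted cluster, had 672 to 932 counts a library in control ESCs and 455 to 685 in control iNs, against 0 in deletion ESCs and at most 2 in deletion iNs. The 8 neuron markers summed to 7363 to 7498 CPM in iNs of the control and 7216 to 7365 CPM in those with the deletion, and the 8 markers of stem cells to 9.04 to 9.58 CPM and 5.20 to 5.68 CPM. The 6 markers of dividing cells summed to 7.65 to 9.57 and 8.58 to 9.76 CPM in the same groups. Among 8 glial markers, summing to 41.4 to 44.7 CPM in control and 44.6 to 51.0 CPM in deletion libraries, Gfap and Sox10 were at 0 there and most of the sum was Mbp. The 4 endoderm markers summed to at most 1.76 CPM in any library. In bulk samples, fewer cells of a type and less RNA per cell cannot be told apart.

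In control cells, 29 of the 32 genes were higher in iNs than in ESCs and none was lower, with a median log2 fold change of 2.38. Across all genes tested in this comparison 43.9% rose and 45.1% fell, with a median of -0.03. Sterol synthesis rose in 17 of 18 genes (median 2.72), regulators and uptake in 3 of 4 (1.45) and fatty acid synthesis in 9 of 10 (2.34). Cell type, medium and day of culture differ together between ESCs and iNs and cannot be told apart.

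The sterol genes with the largest rise act late in the route. Tm7sf2, a sterol reductase after lanosterol, went from 6.73 ± 0.478 CPM in control ESCs to 157 ± 8.14 CPM in control iNs (SD, n = 3), a log2 fold change of 4.54 ± 0.08 (SE, adjusted p = 3.75e-14). Hsd17b7 rose by 3.36 and Dhcr7, which makes the last double-bond reduction, by 3.28 (log2). Of the mevalonate and isoprenoid genes all 7 rose, from Idi1 (isopentenyl diphosphate isomerase) at 0.98 ± 0.07 to Mvk (mevalonate kinase) at 3.10 ± 0.08. Squalene synthase Fdft1, squalene epoxidase Sqle and lanosterol synthase Lss rose by 1.71, 1.42 and 3.10. The sterol isomerase Ebp was the exception, at -0.19 ± 0.10 (adjusted p = 0.0742), and it was called lower without control iN library C (log2 -0.28, adjusted p = 0.0156). Of the regulators, Stard4, a cytosolic sterol carrier, rose by 2.80 ± 0.07, Insig1 by 1.93 ± 0.09 and Srebf2 by 0.97 ± 0.06. Srebf1 was at -0.14 ± 0.09 (adjusted p = 0.151).

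The fatty acid genes ran from 0.11 to 4.31 (log2), within the range of the sterol genes (-0.19 to 4.54). Acss2, which makes acetyl-CoA from acetate, went from 5.99 ± 0.629 to 119 ± 22.1 CPM (log2 4.31 ± 0.14), and the desaturase Scd1 rose by 3.21 ± 0.11. ATP citrate lyase Acly rose by 2.12 ± 0.07. The core enzymes of chain synthesis moved least: fatty acid synthase Fasn was at 0.11 ± 0.05 (adjusted p = 0.0541), acetyl-CoA carboxylase Acaca rose by 0.40 ± 0.05 and the elongase Elovl6 by 0.13 ± 0.05 (adjusted p = 0.032). The Elovl6 call was lost without control ESC library A, B or C or control iN library C (adjusted p 0.0553 to 0.218), with a replicate block (0.0642), with no filter on low counts (0.0992) and on deposited TPM (0.398). The Fasn call was gained without control iN library A or B (adjusted p = 0.0315 and 0.0481), by DESeq2's Wald test (0.0355), with all 12 libraries in 1 fit (0.0396) and on TMM-scaled TPM (0.028).

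Levels between genes were compared per length, in the TPM values that the files hold, which divide by gene length and library total. In control iNs Hmgcs1 was first with 512 ± 41.3 TPM (SD, n = 3), followed by Scd2 with 486 ± 66.4 TPM, a difference within that spread, then Acly with 329 TPM and Fdps (farnesyl diphosphate synthase) with 241 TPM. The lowest were Srebf1 with 10.6 ± 1.88 TPM, Ebp with 18.6 ± 2.85 TPM and Lpin1, a phosphatidate phosphatase, with 24.9 TPM. In control ESCs the order was different, with Scd2 first at 101 ± 3.31 TPM and Acss2 last at 1.88 ± 0.155 TPM.

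The 18 sterol genes together held 454 to 502 TPM in control ESCs and 2092 to 2588 TPM in control iNs. The 10 fatty acid genes held 373 to 410 and 1138 to 1479 TPM, and the 4 regulators 71.2 to 81.0 and 164 to 204 TPM. No library of one cell type overlapped the other. In deletion iNs the sums were 1904 to 2132, 993 to 1154 and 148 to 169 TPM, and in each class control library A lay inside the deletion range while B and C lay above it.

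**Figure D1:**
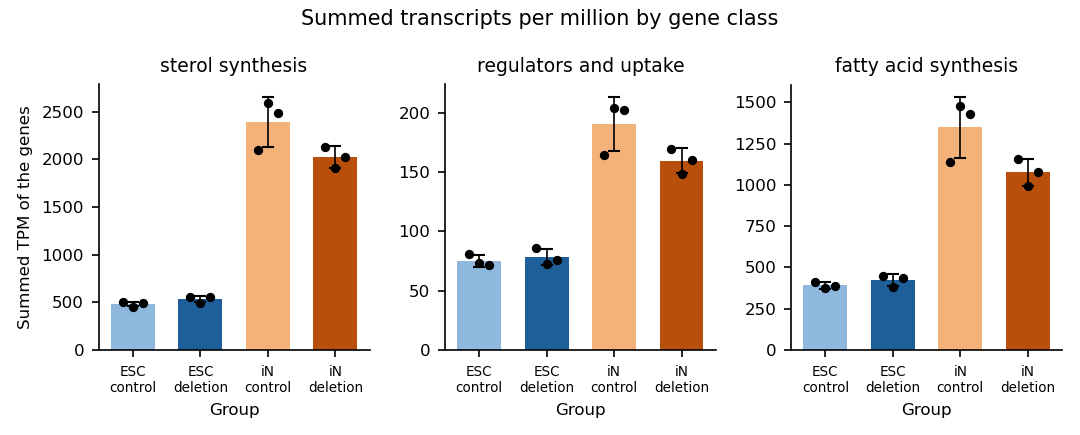
Summed deposited TPM of the 18 sterol, 4 regulator and 10 fatty acid genes; bars are means of 3 libraries, points the libraries and error bars the SD. Every iN library lies above every ESC library in each class, and deletion iN libraries overlap control iN library A.

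In deletion iNs nearly all of the genes were lower. Against control iNs, 31 of the 32 genes fell and none rose, with a median log2 fold change of -0.50, where 13.3% of all genes tested fell, 12.4% rose and the median was 0.00. Scd1, Stard4 and Mvd fell most, by 58.6%, 49.6% and 46.7%. In 30 of 32 genes every deletion library lay below every control library, which held for 20.4% of all genes tested. On the scale of deposited TPM, where the median of all genes moved up by 0.20, 29 of the 32 were lower and Fdft1, Srebf2 and Srebf1 were higher, and a test on those values called 11 as lower (2.16% of all genes).

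In sterol synthesis 17 of 18 genes fell, with a median of -0.49. Mvd, mevalonate diphosphate decarboxylase (chr8:122433596-122443422), held 146, 175 and 170 CPM in control iN libraries A, B and C and 88.6, 85.8 and 86.8 CPM in deletion iNs. The control libraries were spread and all high, the deletion libraries close together and all low. The log2 fold change was -0.91 ± 0.07 (adjusted p = 1.96e-07). The other mevalonate and isoprenoid genes fell by less: Idi1 by 0.67, Fdps by 0.51, Mvk by 0.48, Acat2 (acetoacetyl-CoA thiolase) by 0.47, Hmgcs1 by 0.36 and Pmvk (phosphomevalonate kinase) by 0.30 on the log2 scale.

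The 3 genes that make squalene and turn it into lanosterol, Fdft1, Sqle and Lss, had the smallest median change of the sterol steps. It was -0.275, against -0.48 for the mevalonate and isoprenoid genes and -0.57 beyond lanosterol. Sqle itself fell more than Pmvk, Dhcr7 or Hmgcs1. Fdft1 (chr14:63145150-63181687) held 265, 308 and 293 CPM in control iNs and 287, 288 and 288 CPM in deletion iNs, so the deletion libraries lay inside the control range. Its log2 fold change was -0.01 ± 0.06 (adjusted p = 0.952). Its span overlaps Ctsb in RefSeq, and the strand setting of the counting is not given in the sources used here. Lss fell by 0.27 and Sqle by 0.40. By limma the Lss call was lost on deposited TPM (-0.07, adjusted p = 0.763) and on TMM-scaled TPM (-0.30, adjusted p = 0.126). That of Sqle was lost on deposited TPM only (-0.17, adjusted p = 0.233).

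Beyond lanosterol all 8 genes fell. Cyp51, the lanosterol demethylase (chr5:4080674-4104697), held 391, 392 and 431 CPM in control iNs and 241, 250 and 240 CPM in deletion iNs, without overlap, a log2 fold change of -0.73 ± 0.05 (adjusted p = 2.06e-07). Msmo1, the methylsterol oxidase (chr8:64718123-64733578), held 302, 290 and 312 CPM and then 177, 186 and 187 CPM, with a fold change of -0.72 ± 0.05. These are losses of 39.7% for Cyp51 and 39.1% for Msmo1. The others ranged from Ebp at -0.67 ± 0.09 to Dhcr7 at -0.34 ± 0.05, with Sc5d, Hsd17b7, Nsdhl and Tm7sf2 between -0.58 and -0.48.

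All 4 regulators fell, with a median of -0.46, and they split in size. Stard4 held 186, 186 and 215 CPM in control iNs and 99.6, 96.5 and 99.4 CPM in deletion iNs, with every deletion library far below the controls, and fell by 0.99 ± 0.06 (log2, adjusted p = 5.59e-08). Insig1, itself an SREBP target, went from 195 ± 23.0 to 123 ± 2.61 CPM, a fall of 0.67 ± 0.07. The SREBP genes moved little. Srebf2 held 349, 357 and 348 CPM in control iNs and 333, 303 and 309 CPM in deletion iNs, at -0.16 ± 0.05 (adjusted p = 0.0368). Srebf1 (chr11:60199084-60224186, overlapping Rai1) held 28.6, 33.7 and 34.8 CPM and then 30.2, 25 and 26 CPM, so its groups overlapped, at -0.26 ± 0.09 (adjusted p = 0.0458). Both calls were lost without control iN library B or C or deletion iN library B or C, with adjusted p of 0.0601 to 0.149 for Srebf2 and 0.112 to 0.169 for Srebf1, and with a replicate block. DESeq2's Wald test also lost Srebf1 (0.0583), calling 30 of the 32, where it called 1853 of 16028 genes tested lower. On TMM-scaled TPM neither was called (Srebf2 -0.16, adjusted p = 0.0729, and Srebf1 -0.04, adjusted p = 0.784), and both stood above 0 on deposited TPM.

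All 10 fatty acid genes fell, with a median of -0.53. Scd1 (chr19:44394450-44407709) held 484, 551 and 665 CPM in control iNs and 245, 225 and 234 CPM in deletion iNs. Even the lowest control library was above every deletion library, although the controls differed among themselves. Its log2 fold change was -1.27 ± 0.09 (adjusted p = 9.65e-08), beyond that of every other gene of the 32. Its neighbour and paralog Scd2 (chr19:44293676-44306864) held 2660, 2903 and 3116 CPM and then 2035, 1928 and 1923 CPM, a smaller fall of 0.56 ± 0.06. RSEM's own uncertainty in splitting reads between genes was at most 0.204% of the count for Scd1. At the other end, Fads1, a desaturase of polyunsaturated fatty acids (chr19:10182877-10196874), held 251, 276 and 283 CPM and then 213, 209 and 214 CPM, a fall of 0.35 ± 0.05 (adjusted p = 0.000275) with no overlap.

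The suppliers of acetyl-CoA differed in size of fall, with Acss2 at -0.80 ± 0.10 and Acly at -0.44 ± 0.06. Fasn fell by 0.62 ± 0.06, Lpin1 by 0.56 ± 0.09, Fads2 by 0.50 ± 0.07, Elovl6 by 0.38 ± 0.05 and Acaca by 0.36 ± 0.05. In the authors' deposited table for the same comparison, 31 of the 32 had an adjusted p below 0.05 and a lower level, where 14.8% of its genes with an adjusted p did.

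**Figure D2:**
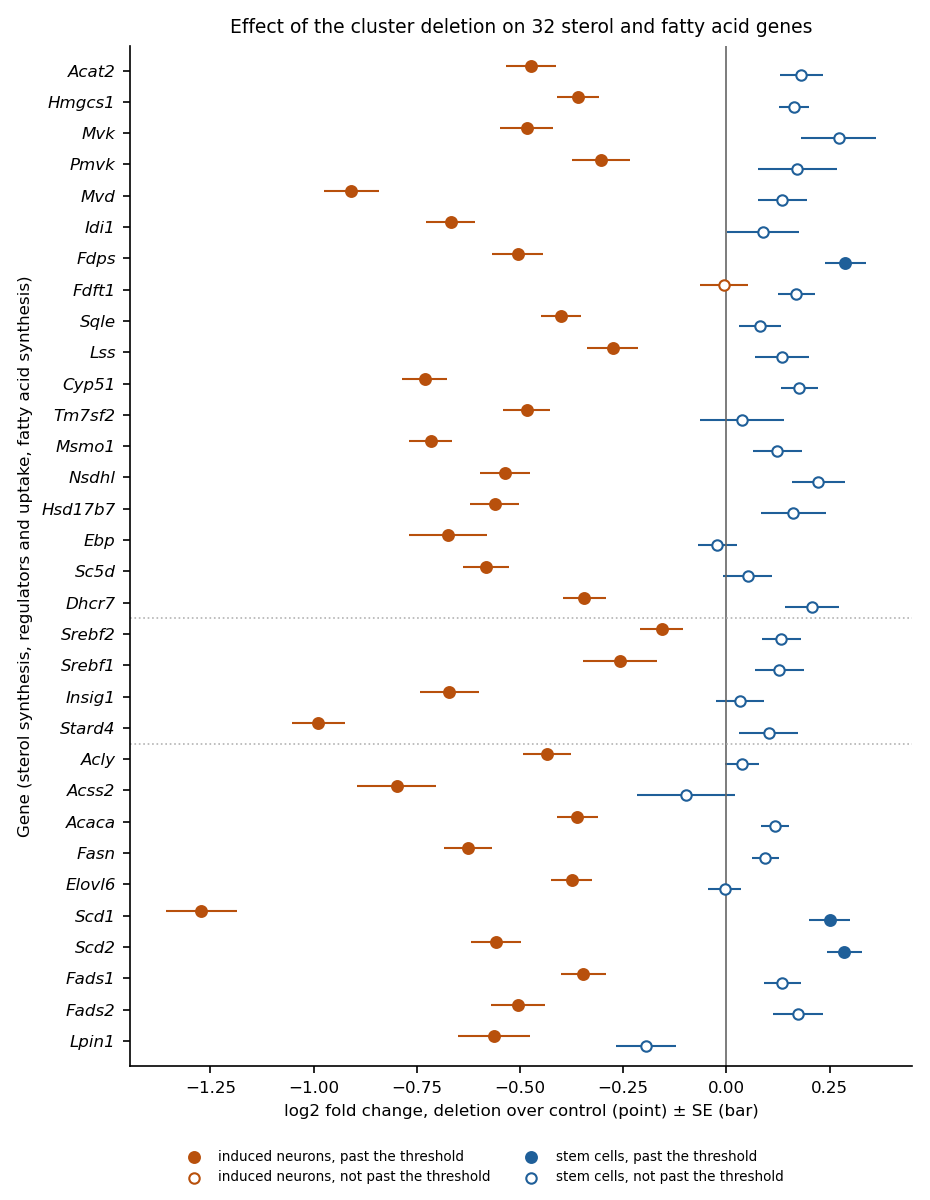
Log2 fold change, deletion over control, for the 32 genes in iNs and in ESCs (points), with SE bars, from edgeR fits of 6 libraries each; filled points passed an adjusted p of 0.05. In iNs 31 points are filled and lie left of zero, Fdft1 lies at zero, and in ESCs 3 points are filled to the right of zero; on deposited TPM, Fdft1, Srebf2 and Srebf1 are higher in deletion iNs.

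Other measures also differed between the genotypes in iNs, not all of them without overlap. Neurog2, the gene of Ngn2, was at 214 to 241 CPM in control iNs and 583 to 648 CPM in deletion iNs. Mitochondrial genes took 3.42 to 4.38% of the counts of each control library and 2.45 to 3.6% of each deletion library, so these ranges overlapped. The 6 fibroblast markers summed to 35.2 to 46.7 and 55.8 to 63.9 CPM, nearly all of it Thy1, which neurons also express, with Lum at 0 in control iNs and Dcn and Lum at 0 in deletion iNs. Of the 8 neuron markers, 4 rose in deletion iNs and none fell, where 12.4% of all genes tested rose and 13.3% fell. Means went from 760.2 to 850.5 CPM for Tubb3 and from 82.8 to 107 CPM for Rbfox3. Lower means, not called, were those of Nefl (2316 to 2119 CPM), Stmn2 (1591 to 1441 CPM) and Snap25 (475.7 to 431.1 CPM). Beside the same shares of all genes, 2 of 3 stem cell markers tested fell, and 1 of 3 glial markers and the 1 tested fibroblast marker rose. The part of these differences in the falls was not tested.

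Control iN library A was the lowest of its group in 24 of the 32 genes, where it was the lowest for 36.1% of all genes tested. It also had the highest mitochondrial share, 4.38%. Without it 31 of the 32 genes still fell, with a median of -0.56, where 1919 of 16442 genes tested fell. Leaving out any other library of the comparison gave 29 or 31 genes that fell. Of all genes tested in those fits, from 1551 of 16281 (without deletion iN library C) to 1994 of 16321 (without control iN library B) fell.

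**Figure D3:**
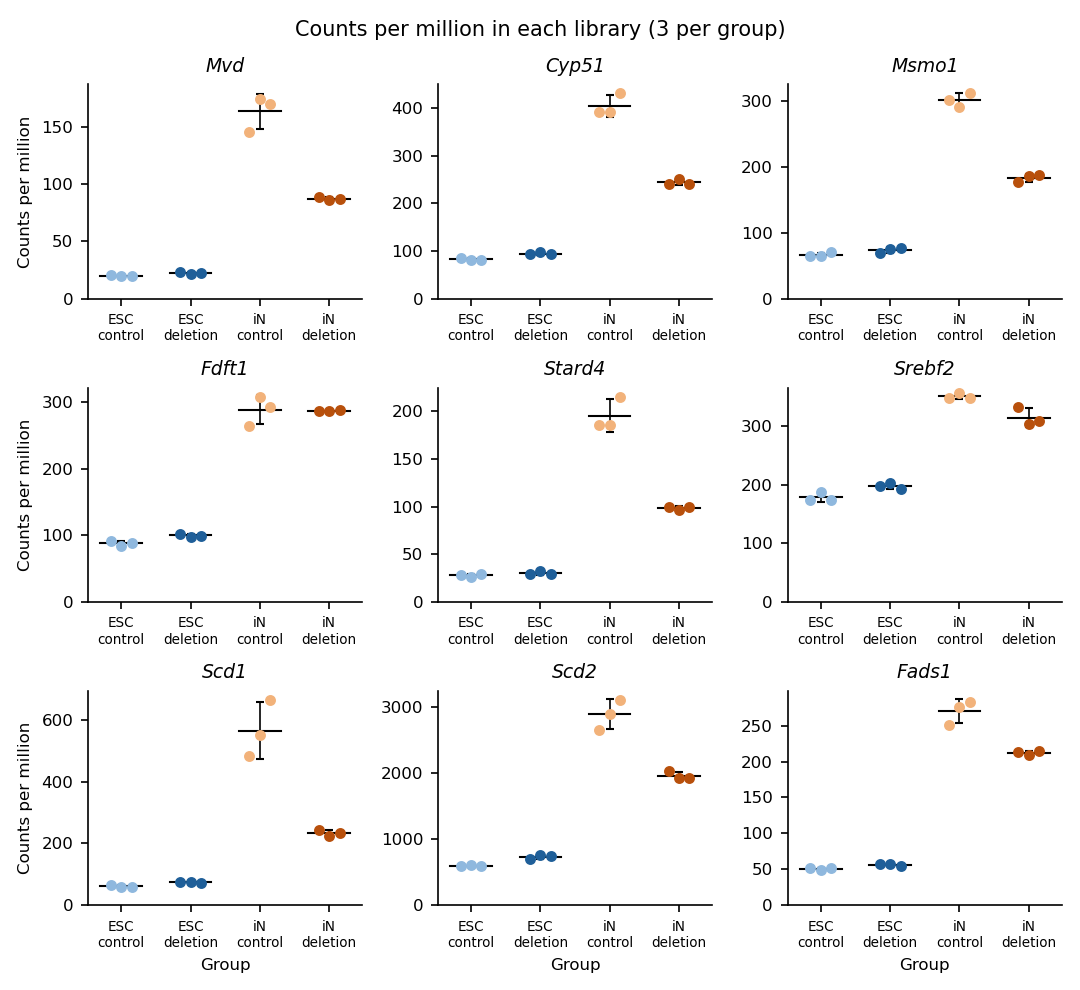
CPM of 9 genes in each of 12 libraries, with group means (lines) and SD (bars), on axes from 0. Mvd, Cyp51, Msmo1, Stard4, Scd1, Scd2 and Fads1 are separated between control and deletion iNs, Srebf2 narrowly so, and Fdft1 overlaps.

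The scale of the iN comparison matters for the smaller falls. With TMM scaling applied to the deposited TPM, the median of all genes was 0.00 and 28 of the 32 genes were called lower by limma on log2(TPM + 0.5), where 8.57% of all genes were. On unscaled TPM 31 of the 32 still lay below the median of all genes, 0.20. The 11 called there were Scd1, Stard4, Mvd, Acss2, Msmo1, Cyp51, Ebp, Insig1, Idi1, Fasn and Sc5d. On that scale Srebf1 stood at 0.18 (adjusted p = 0.347) and Srebf2 at 0.07 (adjusted p = 0.665). Both TPM tests were added after the data were seen.

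**Figure D4:**
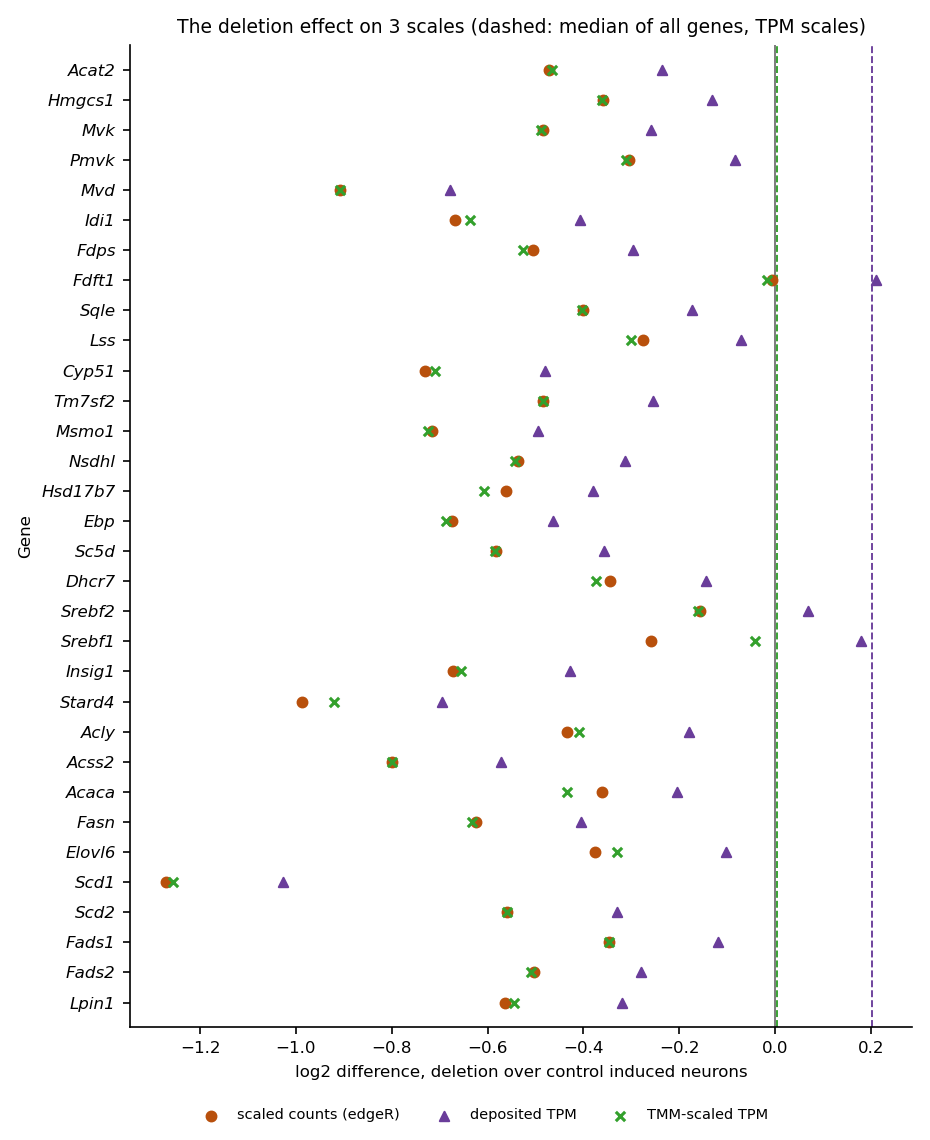
Log2 difference between deletion and control iNs for the 32 genes on scaled counts, deposited TPM and TMM-scaled TPM, with dashed lines at the median of all genes on each TPM scale. Deposited TPM lies to the right of the other scales for each gene, with Fdft1, Srebf2 and Srebf1 above 0.

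In ESCs the same deletion moved the genes little, and upward where it was called. Fdps, Scd1 and Scd2 rose and none of the 32 fell, with a median log2 fold change of 0.13, where 1.37% of all genes tested rose and 0.544% fell. In 18 of the 32 every deletion library lay above every control library, which held for 14.4% of all genes. The estimate was above 0 for 28 of 32. Ebp, Elovl6, Acss2 and Lpin1 were below 0, with Lpin1 lowest at -0.19 ± 0.07 (adjusted p = 0.226).

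Scd2 held 595, 603 and 585 CPM in control ESCs and 700, 754 and 743 CPM in deletion ESCs. The groups were apart, and the log2 fold change was 0.29 ± 0.04 (adjusted p = 0.0115). Scd1 held 64.6, 58.3 and 59.6 CPM and then 73.3, 74.7 and 71.4 CPM, also apart, at 0.25 ± 0.05 (adjusted p = 0.0469). Fdps held 81.7, 77.0 and 80.9 CPM and then 105, 98.0 and 93.5 CPM, at 0.29 ± 0.05 (adjusted p = 0.0237). Hmgcs1 was next to the threshold, at 0.16 ± 0.04 (adjusted p = 0.068). Stard4, Mvd, Acss2 and Cyp51, which with Scd1 had the largest falls in iNs, were at 0.10, 0.14, -0.10 and 0.18 in ESCs, none of them called.

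These ESC calls rest on few libraries. The Scd1 call was lost whichever of the 6 libraries was left out (adjusted p 0.0525 to 0.188), and none of the 32 passed without control ESC library A, B or C or without deletion ESC library B. Few genes passed in those fits, where from 69 of 16584 (without control ESC library B) to 119 of 16565 (without control ESC library C) rose. Libraries of the same replicate letter deviated together in this comparison, which the main test did not take into account. With a replicate block 8 genes rose (3.2% of all genes tested): Fdps, Scd1, Scd2, Hmgcs1, Fdft1, Cyp51, Acat2 and Srebf2. The authors' deposited table had 7 of the 32 higher with an adjusted p below 0.05, where 2.42% of its genes with an adjusted p were. By limma on TPM, with or without TMM scaling, none passed. Few genes passed at all there: 0.00618% of all genes tested rose on deposited TPM and 0.315% on TMM-scaled TPM. The 6 fibroblast markers summed to 53.1 to 61.5 CPM in control ESCs and 90.7 to 100.4 CPM in deletion ESCs, with Col1a1 at 45.6 and 77.4 CPM, and 2 of 5 tested rose. The 8 neuron markers summed to 245 to 252 and 282 to 287 CPM, with 1 of 7 tested called higher. For the 8 stem cell markers the sums were 2438 to 2537 and 2293 to 2438 CPM, with 2 of 8 called lower. Of all genes tested 1.37% were called higher and 0.544% lower. The mitochondrial share was 1.99 to 2.27% and 1.47 to 1.84%. The part of these measures in the ESC differences was not tested.

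The deletion effect differed between the cell types. The difference of the log2 fold changes, iN minus ESC, was below 0 and called in 30 of the 32 genes and above 0 in none, with a median of -0.67, where 8.5% of all genes tested had a lower and 5.01% a higher effect in iNs. It was called in 17 of 18 sterol genes, 4 of 4 regulators and 9 of 10 fatty acid genes. The Srebf1 call was lost with a replicate block (adjusted p = 0.0569) and in 8 of the 12 fits that left out a library: control ESC A or C, deletion ESC B or C, control iN B or C, and deletion iN B or C (0.059 to 0.17). Without deletion iN library B the Srebf2 and Lss calls were lost too (0.0741 and 0.0531). The 6 largest differences were those of Scd1 (-1.54 ± 0.12), Stard4 (-1.11 ± 0.10), Mvd (-1.06 ± 0.10), Cyp51 (-0.93 ± 0.07), Msmo1 (-0.86 ± 0.08) and Scd2 (-0.86 ± 0.08). Fdft1 (-0.19 ± 0.08, adjusted p = 0.114) and Lpin1 (-0.39 ± 0.13, adjusted p = 0.068) did not pass, and both passed without control iN library A.

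Across the 32 genes the size of the change in iNs had little relation to that in ESCs, 2 comparisons that share no library (Pearson r = 0.0675, Spearman rho = 0.17, across genes, which are not independent). Scd1 combined the largest fall in iNs with a rise in ESCs, whereas Acss2, which fell by 0.80 in iNs, was at -0.10 ± 0.12 in ESCs. On unscaled TPM the difference between cell types was called lower in 9 genes (1.03% of all genes tested), and that of Srebf1 and Fdft1 turned to above 0. On TMM-scaled TPM it was called lower in 28 (4.81% of all genes tested). By limma on that scale the calls of Srebf1 (-0.03, adjusted p = 0.938) and Lss (-0.28, adjusted p = 0.577) were lost.

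In deletion cells the step from ESC to iN was smaller, with 27 genes higher, 5 lower and a median of 1.68, where 44.6% of all genes tested rose and 44.9% fell. This comparison uses the same deletion libraries as those above, and the difference from control cells is the one tested there. Fasn was lower in deletion iNs than in deletion ESCs, at -0.64 ± 0.06, against 0.11 in control cells. Ebp stood at -0.87 ± 0.07 against -0.19, Srebf1 at -0.56 ± 0.08 against -0.14, Elovl6 at -0.27 ± 0.04 against 0.13, and Acaca at -0.10 ± 0.04 against 0.40. The Acaca call, with an adjusted p of 0.0355, was lost without deletion ESC library C or any of deletion iN libraries A, B and C (0.0569 to 0.443). On deposited TPM Acaca and Elovl6 stood above 0 (0.13 and 0.0145), and on TMM-scaled TPM below it (-0.06 and -0.18). Scd1 rose by 1.67 against 3.21 and Stard4 by 1.69 against 2.80.

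**Figure D5:**
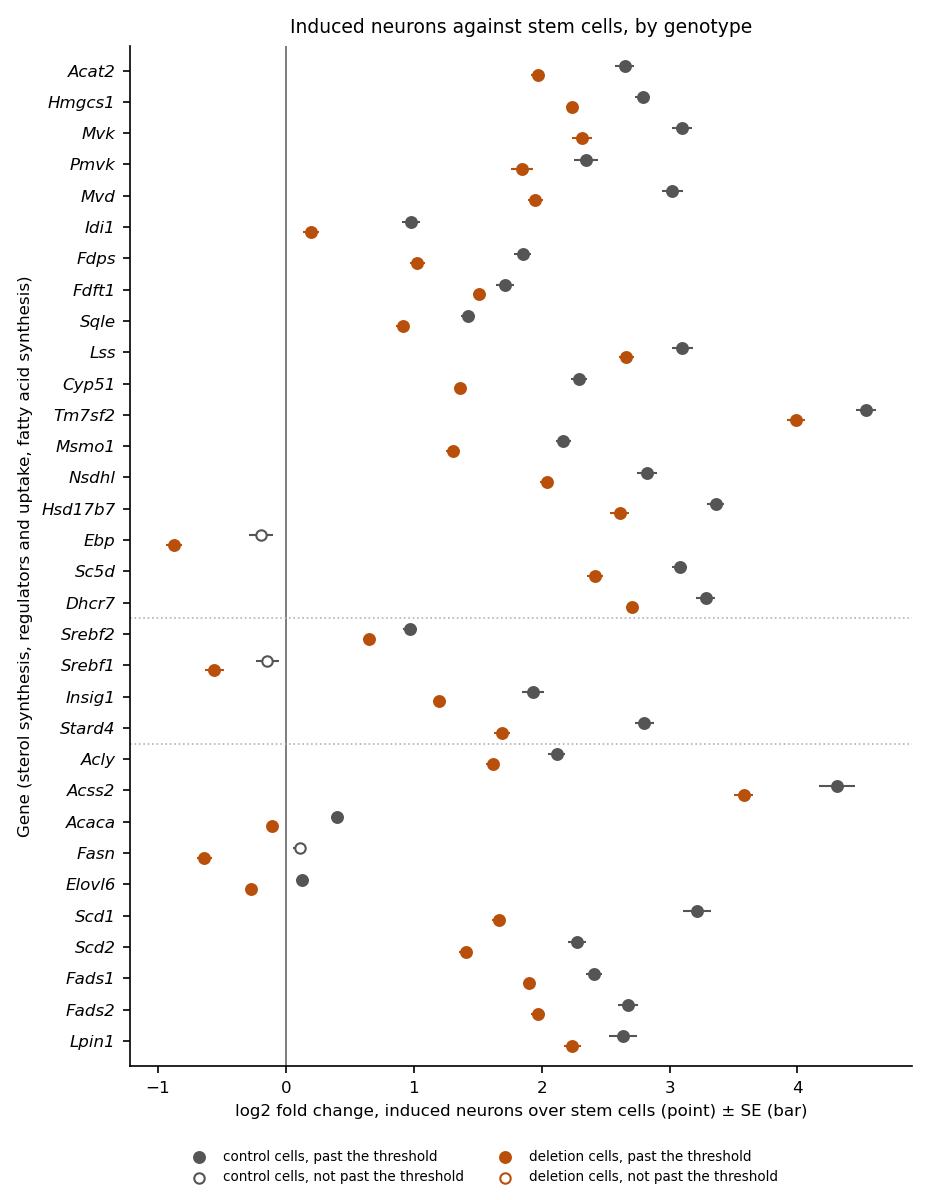
Log2 fold change of iNs over ESCs for the 32 genes in control and in deletion cells (points), with SE bars; filled points passed an adjusted p of 0.05. The deletion points lie to the left of the control points for each gene, and Fasn, Acaca and Elovl6 cross zero (on deposited TPM, Acaca and Elovl6 stay above it).

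Other genes of the same routes gave a more mixed picture. Of 14 further sterol genes tested in the iN deletion comparison, 5 fell and none rose, with a median of 0.01, beside 13.3% and 12.4% of all genes. Among them were Erg28, an endoplasmic reticulum scaffold of sterol enzymes (-0.93 ± 0.09), Npc2, which moves sterol out of lysosomes (-0.67 ± 0.07), Lbr, a nuclear membrane sterol reductase (-0.51 ± 0.07), and Ggps1.

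Of 15 tested genes of SREBP control, sterol export and lipoprotein uptake, 3 rose and 2 fell in deletion iNs, with a median of -0.01, shares near those of all genes (12.4% and 13.3%). Abca1, the exporter that loads sterol onto lipoproteins, rose from 2.76 to 6.39 CPM (adjusted p = 0.000195), and the related exporter Abcg1 rose by 0.42 ± 0.07. Vldlr, a lipoprotein receptor, fell from 150 to 75.0 CPM (adjusted p = 6.27e-08). The SREBP proteases went opposite ways, with Mbtps2 at -0.37 ± 0.08 and Mbtps1 at 0.25 ± 0.06. Scap (0.19, adjusted p = 0.0553), Insig2 (-0.01) and the oxysterol receptor Nr1h2 (0.23) were not called.

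Of 27 further fatty acid and lipid genes tested, 11 fell and 2 rose, with a median of -0.11, beside 13.3% and 12.4% of all genes. Slc25a1, the mitochondrial citrate carrier, fell by 0.79 ± 0.08, Hsd17b12, an elongation reductase, by 0.64 ± 0.06, and the acyl-CoA synthetases Acsl3 and Acsl4 by 0.56 and 0.46. Gpam, the acyltransferase that starts glycerolipid synthesis, rose by 0.37 ± 0.08 and the elongase Elovl7 by 0.33 ± 0.07. In ESCs none of 28 tested passed the edgeR test, where 1.37% of all genes tested rose and 0.544% fell. There 1 of 14 further sterol genes rose, and none of 15 genes of SREBP control, export and uptake was called.

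Against ESCs, these same lists moved both ways in control iNs, where 43.9% of all genes rose and 45.1% fell. Of the further sterol genes 9 rose and 4 fell of 14 tested, led by Cyp46a1, the neuronal enzyme that hydroxylates cholesterol for export (5.78), and Lbr (-2.64). Of SREBP control, export and uptake 10 rose and 4 fell of 15, with Vldlr at 5.65 and Abca1 at -1.98, and of the further fatty acid genes 20 rose and 7 fell of 28, with the very-long-chain elongase Elovl4 at 3.89 and Acacb, a second acetyl-CoA carboxylase, at -3.35. The deletion effect was lower in iNs than in ESCs for 4 of 15 sterol and 9 of 28 fatty acid genes and higher for none of them, beside 8.5% and 5.01% of all genes. In SREBP control, export and uptake it was higher for 3 of 15 genes, Abca1, Abcg1 (0.65) and Mbtps1 (0.27), and lower for 1.

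The microRNA in the Srebf2 locus was scarce. Mir33-5p had 48 to 166 counts a library and the 3p form 6 to 17, in 744279 to 1532230 mature microRNA counts. In deletion iNs miR-33-5p was at 113, 97.1 and 77.7 CPM, and in control iNs at 36.9, 48.2 and 122 CPM, so the groups overlapped. The log2 fold change was 0.46 ± 0.29 (adjusted p = 0.206), and that of miR-33-3p 0.04 ± 0.41 (adjusted p = 0.947). Neither form passed the edgeR test in any of the 5 comparisons at this depth.

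Ago2 seCLIP marks RNA bound by the microRNA effector protein. These lists came from Mirg(fl/+) iNs expressing HA-tagged or untagged Ago2, without deletion cells, and gave 1 value a region without keeping replicates apart, so none has a replicate check. Regions on either strand lay in the RefSeq span of 16 of the 32 genes, 52 regions in all, with 14 each in Hmgcs1 and Scd2. The share of all genes with such a region was not counted, so this count marks no trait of the 32 genes. None had both a log2 fold of at least 3 and a −log10 p of at least 3 over the untagged precipitate in the authors' deposited table, where 822 of 22400 regions did. The highest in the 32 genes was at chr15:82198127-82198157 in Srebf2, at 2.16 over untagged Ago2 (−log10 p 1.18) and 4.57 over input in the authors' deposited tables. It starts at the first base of miR-33-5p, whose 21 bases are shown above.

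The authors' deposited table of regions matched to seeds of the deleted microRNAs named 5 of the 32 genes and 7 regions. The share of all genes named there was not counted either. Msmo1 had 2, for miR-369-3p (log2 1.73 over untagged Ago2) and miR-668-3p (1.58). Insig1 had 1 for miR-495-3p (1.13), Cyp51 1 for miR-666-3p (0.28), Hmgcs1 1 for miR-299-3p (-0.21), and Scd2 2 for miR-539-5p (0.51 and 0.23), all values from the authors' deposited table. The highest −log10 p among them was 1.03, that of miR-369-3p. All 5 genes fell in deletion iNs, by 0.36 to 0.73, within the range of the genes without such a region.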

How the data were processed

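The 32 genes and the lists beside them were chosen with earlier results of these data known. The deposited files hold RSEM's expected count and TPM for each gene and library, per the file headers, and the same for each mature microRNA. Tools listed in the submitters' processing notes, with neither role nor order, are RSEM 1.2.30, STAR 2.4.1d, cutadapt 1.4.2, SAMtools and DESeq2, with the build mm10. The annotation release and strand setting are not given in the sources used here. The authors' deposited tables hold log2 fold changes and adjusted p-values per gene, and for CLIP a log2 fold and −log10 p per region. Their deposited mean normalised count, a signal value per microRNA, and RSEM's posterior mean counts served only to match microRNA names to accessions (relative tolerance 1e-08).

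Expected counts, rounded, were tested by edgeR's quasi-likelihood F test (version 4.0.16, R 4.3.3) after TMM scaling and filterByExpr with its minimum count at 10. P-values were adjusted by Benjamini-Hochberg over all genes, with a threshold of 0.05. Each comparison used its own 6 libraries, and the difference between cell types used 12. The SE is the log2 fold change divided by the square root of F. The test was tried on simulated counts. No per-sample column was left unmapped. Library values were to be given for the genes with the largest and smallest change in iNs in each class, calls against their class and the 6 largest differences between cell types, and of the other lists at most 4 called genes a comparison. Fdps, Srebf1, Ggps1, Gpam, Elovl7, Mbtps1 and the uncalled genes of those lists were added after their values were seen. Some genes of those lists are not reported here.

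Alternatives were DESeq2 1.42.0 (its size factors, and its own Wald test), testing all genes with any count, a replicate block, one fit over all libraries, leaving out single libraries, motifs on the gene's own strand and stricter CLIP regions. Tests by limma 3.58.1 on log2(TPM + 0.5) were added after seeing the data. Libraries with the same letter deviated together in the ESC deletion comparison (r = 0.348, 0.107 and 0.136 across genes). The main tests did not use the letters there either, and only the replicate block took them as pairs. In the other comparisons the letters share only a name.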

Additional observations from a re-analysis of the deposited data

Results flagged for a closer look

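For 30 of the 32 genes the effect of the deletion in iNs differed from that in ESCs by the test of that difference in the 12 libraries. The values that follow are the log2 fold change in iNs minus that in ESCs, and each is below 0, except that on deposited TPM Srebf1 stood above 0 (0.20). In sterol synthesis they were Acat2 (-0.67), Hmgcs1 (-0.54), Mvk (-0.77), Pmvk (-0.49), Mvd (-1.06), Idi1 (-0.77), Fdps (-0.81), Sqle (-0.50), Lss (-0.43), Cyp51 (-0.93), Tm7sf2 (-0.54), Msmo1 (-0.86), Nsdhl (-0.77), Hsd17b7 (-0.74), Ebp (-0.67), Sc5d (-0.65) and Dhcr7 (-0.57). Among the regulators they were Insig1 (-0.72), Srebf2 (-0.31), Srebf1 (-0.40) and Stard4 (-1.11). In fatty acid synthesis they were Scd1 (-1.54), Scd2 (-0.86), Fasn (-0.74), Acaca (-0.50), Acly (-0.49), Acss2 (-0.72), Elovl6 (-0.39), Fads1 (-0.50) and Fads2 (-0.70).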

How the results depend on the processing

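All counts here are of the 32 genes, and the TPM tests were added after seeing the data. In control iNs against control ESCs 1 gene fell with no filter on low counts and with all 12 libraries in 1 fit (Ebp in both), and 1 by limma on deposited or TMM-scaled TPM (Srebf1). Leaving out single libraries gave 0 to 1 there, 29 to 31 that fell in deletion iNs, 0 to 3 that rose in deletion ESCs, 4 to 5 that fell in deletion iNs against deletion ESCs, and 27 to 32 with a lower effect in iNs. Over all genes (16281 to 18714 tested), the counts in the same order were 7674 to 7966, 1551 to 1994, 69 to 211, 7824 to 7944 and 907 to 1566. On deposited TPM the counts that fell were 11 in deletion iNs (2.16% of all genes tested) and 2 in deletion iNs against deletion ESCs (38.4%). For the difference between cell types the count was 9 (1.03%). In deletion ESCs 0 rose on deposited TPM (0.00618% of all genes tested), 0 on TMM-scaled TPM (0.315%) and 8 with the replicate block (3.2%). In deletion iNs 29 fell with the replicate block, where the same letters did not deviate together (r = -0.0491, 0.0176 and 0.0358), and Srebf1 and Srebf2 were the calls lost. With that block 1887 of all 16028 genes tested fell. Deposited TPM turned the direction of Srebf2 (0.0683) and Srebf1 (0.18) in deletion iNs, of Acaca (0.13) and Elovl6 (0.0145) in deletion iNs against deletion ESCs, and of Srebf1 (0.20) in the difference between cell types; the unscaled TPM shift the median of all genes by 0.20 in deletion iNs. On the gene's own strand the SRE core lay in 0.625% of genes with a promoter entry, against 1.44% on both. Depth limits the miR-33 values, with 6 to 17 counts of the 3p form, and the authors' CLIP values do not keep replicates apart.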
